A study of Mus musculus with 15 samples.

Results

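The genes described here are 10 genes of the smooth muscle contractile apparatus that myofibroblasts also use: Acta2, Actg2, Acta1, Myh11, Cnn1, Tagln, Myl9, Tpm1, Tpm2 and Lmod1. They are 10 of the 55487 genes in the deposited gene table, chosen by symbol with the results of the knockout comparison already known. Their differences in total level are therefore given as a description, and no test of them is read as support. The study asked how SIRT7, a nuclear sirtuin deacylase, bears on dosage compensation of the female X chromosome. RNA-seq of polyA RNA was analysed here in 3 SIRT7 knockout libraries, named KO 2, KO 9 and KO 22 after lines c2, c9 and c22, and in 3 SIRT7 wild-type libraries, named WT 1, WT 2 and WT 3. Both groups were TTF cells, as the labels call them, from female C57BL6/CAST hybrid mice. The labels name no treatment, age or passage for either group, and do not say how the knockout was made or whether the wild-type libraries came from separate animals or cultures. P-values therefore measure only the spread between these libraries, and line and genotype cannot be told apart. As matched here, the KO libraries are titled by line and the WT libraries by replicate, in different patterns. A difference between these sets of libraries cannot be told apart from genotype either. The other 9 of the 15 samples were not analysed here.

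Contraction in smooth muscle and in myofibroblasts, the contractile fibroblasts of healing wounds and scars, is driven by myosin pulling on actin filaments. The actins, the myosin chains, the tropomyosins along the filament and the actin-binding proteins calponin, transgelin and leiomodin are made from a shared set of genes. Many of these genes are known targets of serum response factor (SRF), which binds the CArG box together with myocardin in smooth muscle or with the related MRTF proteins in fibroblasts.

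Promoter windows are shown for 3 of the genes because they show the CArG boxes that the set is known for, in Acta1 and Myl9, and a window without one, that of Cnn1. RefSeq's table for GRCm38.p6 held 7 of the 10 genes, Lmod1, Myl9, Tpm2, Acta1, Cnn1, Tpm1 and Acta2, but not Actg2, Myh11 and Tagln. A window is the 250 bases before RefSeq's start. Bases that GENCODE places in an exon of the same gene were cut from the windows shown, and Acta2 is not shown because 217 of its 250 bases lie in an annotated exon. Capitals mark CArG boxes (CC, a core of A or T bases, then GG), including those with 1 G or C in the core. The sequences read 5′ to 3′ on the gene's own strand, at chr8:123894776-123895025 on the minus strand for Acta1, chr2:156775214-156775419 on the plus strand for Myl9 and chr9:22099003-22099215 on the plus strand for Cnn1.
Acta1: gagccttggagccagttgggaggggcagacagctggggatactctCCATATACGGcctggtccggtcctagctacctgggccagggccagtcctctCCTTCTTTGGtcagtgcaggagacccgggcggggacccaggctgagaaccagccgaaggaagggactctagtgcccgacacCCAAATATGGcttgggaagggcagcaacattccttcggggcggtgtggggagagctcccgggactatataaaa
Myl9: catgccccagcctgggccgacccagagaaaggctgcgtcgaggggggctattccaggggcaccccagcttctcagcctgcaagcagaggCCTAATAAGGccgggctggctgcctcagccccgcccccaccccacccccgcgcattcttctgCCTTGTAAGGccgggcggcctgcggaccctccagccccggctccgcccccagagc
Cnn1: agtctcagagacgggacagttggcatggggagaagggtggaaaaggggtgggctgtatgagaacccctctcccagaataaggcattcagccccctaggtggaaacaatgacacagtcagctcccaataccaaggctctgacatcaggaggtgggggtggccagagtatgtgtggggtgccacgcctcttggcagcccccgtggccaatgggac

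Both strands were searched in all 32817 distinct windows. A full CArG box was in the windows of Myl9 and Acta1, 2 of 7 genes, and in 1.47% of all windows. Allowing 1 G or C in the core, which includes the full box, added Acta2 and gave 8.60% of all windows. The windows of Cnn1, Lmod1, Tpm1 and Tpm2 held neither. The search used whole windows, and in these 193 bases of Tpm1, 106 of Tpm2, 37 of Cnn1 and 6 of Lmod1 lie in an annotated exon. Less sequence outside exons was thus searched for Tpm1 and Tpm2. Whether a box bears on the fold changes was not tested. In the Acta1 window the boxes began 205, 154 and 73 bases before the start, and in that of Myl9 161 and 99 bases before it. The Acta2 matches began 84 and 34 bases before its RefSeq start. CATTCC, the core of the site bound by TEAD factors, was in the windows of Lmod1, Acta1, Tpm1 and Acta2 and in 12.6% of all windows. TATAAA was in the Acta1 window and in 12.4% of all windows. None of these CATTCC or TATAAA matches in the printed windows overlapped a CArG box. A match here is a description of letters and not a measured binding site.

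Totals lay between 61065582 and 61506413 counts per library. The biological coefficient of variation was 0.379 among the KO lines and 0.136 among the WT libraries. Sirt7, the targeted gene, had 512, 694 and 787 gene counts in KO 2, KO 9 and KO 22, against 833, 1107 and 598 in WT 1, WT 2 and WT 3, a log2 fold change of -0.31 ± 0.27 (SE; adjusted p = 0.515, edgeR's quasi-likelihood test). The longest of its coding transcripts, Sirt7-201, was counted 2, 0 and 0 times in the KO lines, against 53, 58 and 159 in the WT libraries. This transcript separated the labels, and the gene total did not. Nor did the coding transcript Sirt7-207, with 60, 129 and 0 counts in KO 2, KO 9 and KO 22, against 118, 11 and 68 in WT 1, WT 2 and WT 3. In polyA RNA of whole cultures, fewer cells of a type and less RNA per cell cannot be told apart.

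The 10 genes together took up a larger share of the RNA in every KO line. They made up 1.81%, 1.52% and 2.25% of all gene counts in KO 2, KO 9 and KO 22, against 1.29%, 1.35% and 1.29% in WT 1, WT 2 and WT 3. Every one of the 10 passed the filter on low counts. By name, 9 had a positive log2 fold change and 1, Cnn1, a negative one. Acta2, Actg2, Acta1, Myh11, Myl9 and Lmod1 were higher in every KO line than in every WT library, Cnn1 was lower in every KO line, and the groups overlapped for Tagln, Tpm1 and Tpm2. The groups did not overlap for 7 of 10 genes, beside 35.9% of all 16678 genes tested. At an adjusted p under 0.05 edgeR called 3 of the 10 higher (Actg2, Acta1 and Myh11) beside 3.54% of all genes tested, and 1 lower (Cnn1) beside 3.19%. Nothing is read from these counts, since this contrast was in view when the genes were chosen. The median log2 fold change was 0.52 over the 10 genes and 0.02 over all genes tested, and the median size of the change without its sign was 0.80 and 0.28.

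**Figure D1:**
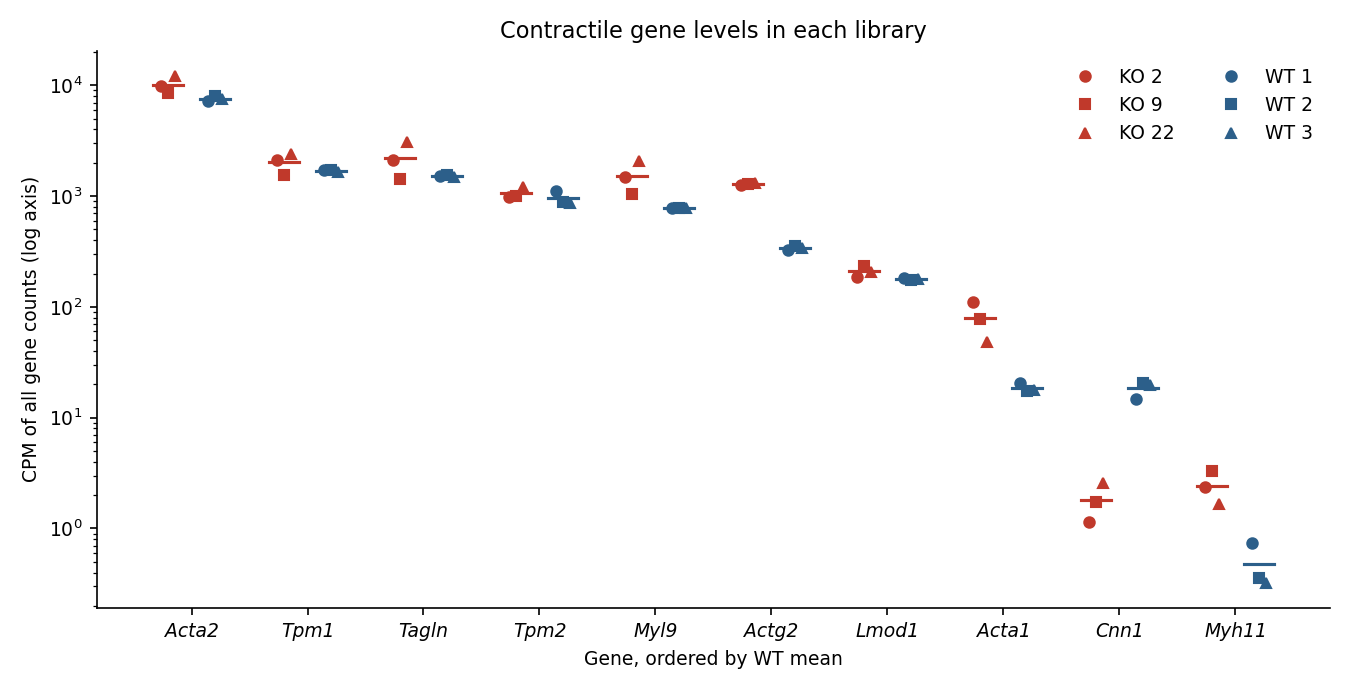
CPM (counts scaled to the same total of gene counts in every library, log axis) of the 10 genes, ordered from high to low by the WT mean, with 1 point per library (red, the KO lines, left; blue, the WT libraries, right) and a bar at each group's mean. Actg2, Acta1 and Myh11 sit above WT in all 3 KO lines, Cnn1 sits below, and the KO points of Tagln and Tpm1 lie on both sides of the WT points.

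Levels between genes can be compared only per length. In TPM, a level per length computed here from the transcript counts and annotated lengths, Acta2 was the highest of the 10 with 9383 ± 1845 TPM in KO lines and 6640 ± 349 TPM in WT libraries (SD, n = 3 each), the rank of 4 among all genes in WT. Behind it in WT came Tpm1 and Tagln, at 1716 ± 36.5 and 1699 ± 37.0 TPM, which did not differ beyond their spread. Myl9 with 1294 ± 10.2 TPM, Tpm2 with 1013 ± 99.6 TPM and Actg2 with 455 ± 13.9 TPM followed in WT, and Lmod1, Acta1 and Cnn1 were at 81.0, 23.0 and 14.7 TPM. Myh11, the heavy chain that defines differentiated smooth muscle, was last in both groups, with 0.747 ± 0.250 TPM in KO lines and 0.129 ± 0.0621 TPM in WT libraries. In KO lines Myl9 (2659 ± 957 TPM), Tagln (2630 ± 1040 TPM), Tpm1 (2141 ± 501 TPM) and Actg2 (1948 ± 122 TPM) lay within 1 SD of a neighbour in the order, and Cnn1 was at 1.71 ± 0.738 TPM.

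Among the actins, Actg2 and Acta1 were several-fold higher in KO lines and Acta2 moderately so. Acta2, smooth muscle alpha-actin and the usual marker of myofibroblasts (chr19:34241090-34255590, minus strand, GRCm38), had 9826, 8582 and 12132 CPM in KO 2, KO 9 and KO 22, against 7180, 8006 and 7602 CPM in WT 1, WT 2 and WT 3. All 3 KO lines were above all WT libraries, but KO 9 was only just above WT 2. The log2 fold change was 0.46 ± 0.14 (SE), with 0.29 to 0.56 when 1 library was left out and the lowest value without KO 22. The median over tested genes of chromosome 19 was -0.21, so the difference from the chromosome's own median was 0.67.

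Actg2, the gamma-actin of enteric smooth muscle (chr6:83512905-83536265, minus strand), had 1251, 1299 and 1319 CPM in KO 2, KO 9 and KO 22, against 329, 351 and 340 CPM in WT 1, WT 2 and WT 3. Within each group the libraries were close together, with a highest-to-lowest ratio of 1.05 among KO lines and 1.07 among WT libraries, and the groups were far apart. The log2 fold change was 1.95 ± 0.08, a 3.88-fold higher level. The log2 fold change was 1.92 to 1.98 when 1 library was left out. A further difference lay in the counts assigned to the Actg2 transcripts. The non-coding transcript Actg2-203 (673 bases) had 5148, 5652 and 6981 counts in KO 2, KO 9 and KO 22, against 0, 0 and 0 in WT 1, WT 2 and WT 3. That was 7.49% ± 1.02 of the gene's transcript counts in KO lines (SD, n = 3). Against a floor of 3 counts over the WT group, the Actg2-203 level was 5935-fold higher. This value rests on the floor chosen and on how reads were divided among the transcripts.

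The share of a transcript within its gene was not used to choose the genes and was tested across 37218 transcripts, of which 0.406% were called. Usage of Actg2-203 rose by a log2 of 9.42 ± 0.57 (adjusted p = 1.03e-07, edgeR's diffSpliceDGE), a fitted value that depends on the prior count. The rare coding transcript Actg2-206 had 0, 0 and 4 counts in the KO lines, against 41, 54 and 35 in the WT libraries, and its usage fell (log2 -4.73 ± 0.49, adjusted p = 6.89e-05, edgeR's diffSpliceDGE). Both calls held under every alternative run. The full-length coding transcript Actg2-201 kept 92.4% ± 1.02 of the counts in KO lines and 99.7% ± 0.0429 in WT libraries (adjusted p = 1, edgeR's diffSpliceDGE). These counts come from a division of reads among overlapping transcripts.

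Acta1, the alpha-actin of skeletal muscle (chr8:123891769-123894751, minus strand), had 111, 77.5 and 48.3 CPM in KO 2, KO 9 and KO 22, against 20.7, 17.3 and 17.8 CPM in WT 1, WT 2 and WT 3. Every KO line was above every WT library, while KO 2 had 2.30 times the level of KO 22. On the log2 scale the fold change was 2.11 ± 0.29. Other skeletal muscle genes were nearly absent. The 13 other genes of a skeletal muscle marker list summed to 0.131 to 0.488 CPM in KO lines and to 0.229 to 0.341 CPM in WT libraries, and Myod1, Myog, Pax7, Myh3, Myh8 and Actc1 were at 0 counts in all 6 libraries.

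The myosin genes were higher in KO lines at very different levels. Myl9, the regulatory light chain of smooth muscle myosin (chr2:156775420-156781658, plus strand), had 1477, 1041 and 2081 CPM in KO 2, KO 9 and KO 22, against 785, 785 and 777 CPM in WT 1, WT 2 and WT 3. The WT libraries were almost alike and every KO line was above them, but KO 22 had 1.999 times the level of KO 9. This was a log2 fold change of 1.01 ± 0.24.

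Myh11 (chr16:14194535-14291372, minus strand) was barely detected, with 146, 201 and 102 counts (2.39, 3.27 and 1.67 CPM) in KO 2, KO 9 and KO 22, against 45, 22 and 20 counts (0.737, 0.358 and 0.325 CPM) in WT 1, WT 2 and WT 3. All KO lines were above all WT libraries. They gave a log2 fold change of 2.39 ± 0.43. Other markers of smooth muscle stood at very different levels. Myocd, the myocardin gene, had 0.0327, 0 and 0.114 CPM in KO 2, KO 9 and KO 22 and 0 in every WT library, and Des, the desmin gene, averaged 1.19 CPM in KO lines and 0.881 CPM in WT libraries. Synpo2, the synaptopodin 2 gene, averaged 3.07 CPM in KO lines and 1.39 CPM in WT libraries. Smtn, the smoothelin gene of contractile smooth muscle, was far higher. It averaged 193 ± 61.3 CPM in KO lines and 120 ± 3.66 CPM in WT libraries (SD, n = 3 each). Rgs4, a regulator of G protein signalling, had 88.1, 346 and 233 CPM in KO 2, KO 9 and KO 22. It had 102, 109 and 104 CPM in WT 1, WT 2 and WT 3, so KO 2 was below every WT library. Des, Synpo2, Smtn and Rgs4 did not pass edgeR's test. With Actg2 and Lmod1 the same marker list thus held genes from near 0 up to the level of Actg2, and Myh11, Myocd, Des and Synpo2 were among those at its low end.

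Of the actin-binding regulators, Cnn1 was the exception of the set. Cnn1, calponin 1, which binds actin and restrains myosin's ATPase (chr9:22099216-22109630, plus strand), had 1.15, 1.74 and 2.55 CPM in KO 2, KO 9 and KO 22, against 14.7, 20.6 and 19.8 CPM in WT 1, WT 2 and WT 3. In counts these were 70, 107 and 156 in the KO lines and 899, 1264 and 1215 in the WT libraries, with no overlap. The log2 fold change was -3.30 ± 0.34, a level 9.84 times as high in WT, and it was -3.65 to -3.05 when 1 library was left out. Over all tested genes of chromosome 9 the median log2 fold change was 0.18.

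Tagln, transgelin or SM22-alpha, an actin cross-linker and a common smooth muscle marker (chr9:45929619-45936058, minus strand), had 2120, 1442 and 3103 CPM in KO 2, KO 9 and KO 22, against 1522, 1551 and 1476 CPM in WT 1, WT 2 and WT 3. KO 9 was below all WT libraries and the other KO lines above them, so the groups overlapped. Its log2 fold change was 0.59 ± 0.26, with 0.24 without KO 22 and 0.37 in the limma fit with chromosome medians taken out. Its difference from the chromosome's own median was 0.41. Of the 100-base stretches of its transcripts, 48.3% also occur in other genes, nearly all in Gm48529, which is annotated on the opposite strand at chr9:45930112-45933738. The sources used here give no strand setting for the counting, so reads of Tagln and Gm48529 cannot be told apart. None of the 100-base stretches of the other 9 genes occur in another gene.

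The tropomyosins and leiomodin differed least. Tpm1, a tropomyosin that lies along the actin filament (chr9:67022590-67049406, minus strand), had 2131, 1552 and 2415 CPM in KO 2, KO 9 and KO 22, against 1709, 1739 and 1663 CPM in WT 1, WT 2 and WT 3. KO 9 was again below the WT libraries. The log2 fold change was 0.29 ± 0.17, with 0.45 without KO 9 and 0.12 without KO 22. It was 0.12 in the limma fit with chromosome medians taken out, and its difference from the chromosome's own median was 0.11. Tpm2, a second tropomyosin (chr4:43514711-43523765, minus strand), had 977, 1010 and 1200 CPM in KO 2, KO 9 and KO 22, against 1118, 884 and 860 CPM in WT 1, WT 2 and WT 3, a log2 fold change of 0.19 ± 0.15, with 0.07 without KO 22, 0.32 without WT 1 and 0.11 without WT 3. Only KO 22 was above WT 1, and the groups overlapped. Lmod1, leiomodin 1, which nucleates actin filaments (chr1:135324807-135368065, plus strand), had 187, 234 and 207 CPM in KO 2, KO 9 and KO 22, against 184, 175 and 180 CPM in WT 1, WT 2 and WT 3. These groups did not overlap, though KO 2 was within a few CPM of WT 1. The log2 fold change was 0.25 ± 0.11, with 0.16 without KO 9.

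**Figure D2:**
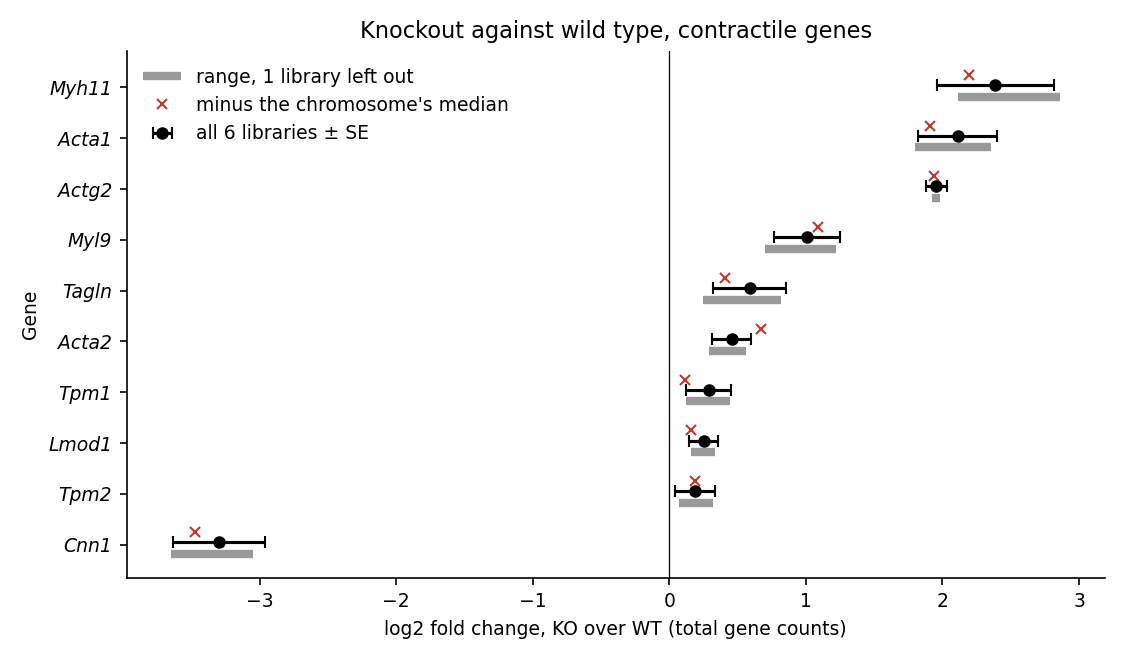
Log2 fold change of total gene counts, KO over WT, for the 10 genes: black points with bars give the value ± SE from all 6 libraries, grey bars the range when 1 library is left out, and red crosses the value minus the median of the gene's chromosome. Cnn1 lies at -3.30, Actg2, Acta1 and Myh11 between 1.95 and 2.39, and the other genes between 0.19 and 1.01.

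The KO lines differed among themselves more than the WT libraries did. The median ratio of the highest to the lowest library over the 10 genes was 1.76 among KO lines and 1.09 among WT libraries, beside 1.46 and 1.15 over all genes tested. KO 22 was the highest of the KO lines for 7 of the 10 genes. Acta2, Tagln, Myl9 and Tpm1 all had the order KO 22, KO 2, KO 9 from high to low. Acta1 was highest in KO 2 and Myh11 and Lmod1 in KO 9, so the genes did not share an order.

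Most calls on total counts were lost when a WT library was left out. Since this contrast was in view when the genes were chosen, a call that is kept is not read as support. Without WT 1, Actg2 and Cnn1 were still called, and without WT 2 or WT 3 only Actg2 was. Without KO 9, Myl9 and Tpm1 were called and Myh11 was not, and Myh11 was not called with no filter on low counts either. Myl9 was called without KO 22, with DESeq2, with limma-voom using group weights and once chromosome medians were taken out. In total counts the sign of each of the 10 genes was kept under all 13 alternatives.

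Apart from Actg2-203 and Actg2-206, 37 transcripts of the 10 genes were tested and 0 passed with edgeR's diffSpliceDGE, with 1 at an unadjusted p under 0.05. That was Cnn1-205, named after its value was seen, with 7.96% ± 6.96 of the Cnn1 counts in KO lines and 2.02% ± 0.885 in WT libraries (SD, n = 3 each). Tpm1 and Tpm2 were the genes with more than 1 transcript at 10% or more of their counts. Tpm1-216 held 53.2% ± 9.42 of the Tpm1 counts in KO lines and 42.1% ± 3.0 in WT libraries, and Tpm1-213 held 13.8% ± 2.82 in KO lines and 14.8% ± 0.448 in WT libraries (SD, n = 3 each). Tpm1-202 varied most, with 1.62%, 0% and 19.6% in KO 2, KO 9 and KO 22, against 21.2%, 20.7% and 15.2% in WT 1, WT 2 and WT 3. Only KO 22 was within the WT range, and the change did not pass the test (log2 -0.83 ± 0.56, adjusted p = 1, edgeR's diffSpliceDGE). It was called with limma's diffSplice, and also in edgeR once KO 22 was left out. Tpm2-202 held 49.6% ± 5.94 in KO lines and 62.4% ± 6.44 in WT libraries, and Tpm2-203 43.4% ± 6.13 in KO lines and 29.7% ± 6.55 in WT libraries, with neither called. Acta2-201, Acta1-201, Myh11-201, Cnn1-201, Tagln-201, Myl9-201 and Lmod1-201 each held most of their gene's counts in both groups.

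Since the cells are hybrids, part of the reads could be assigned to a parental genome, called genome 1 and genome 2 in the deposited table. The sources used here do not name the strain behind genome 1. Pooled over a whole chromosome, the genome 1 share could lie away from 50% in both groups. In WT 1, WT 2 and WT 3 it was 36.9%, 37.3% and 36.3% on chromosome 1 and 69.7%, 68.9% and 70.0% on chromosome 19. On chromosome 11 it was 57.9%, 31.6% and 63.6% in KO 2, KO 9 and KO 22. Whether the cells held equal copies of both genomes was not tested. The ratio of genome 1 to genome 2 was not used to choose the genes. It was tested for an allele by genotype difference in 12984 genes, of which 23.0% were called, and 4 of the 10 genes were called: Acta2, Actg2, Cnn1 and Lmod1.

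Acta2 was more evenly split in KO lines than in WT libraries. Its genome 1 share was 49.2%, 49.1% and 47.7% of allele-assigned counts in KO 2, KO 9 and KO 22, against 69.7%, 69.3% and 69.9% in WT 1, WT 2 and WT 3. The allelic ratio fell by 1.28 on the log2 scale (SE 0.09, adjusted p = 0.00144, edgeR's quasi-likelihood test). The groups did not overlap and each was tight. The difference in level lay mainly in genome 2, with 2974 ± 594 CPM of allele-assigned counts in KO lines and 1293 ± 93.5 in WT libraries, a ratio of 2.30. Genome 1 gave 2808 ± 467 in KO lines and 2965 ± 193 in WT libraries (SD, n = 3 each).

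Actg2 moved the other way. Genome 1 held 64.8%, 57.8% and 68.6% of its allele-assigned counts in KO 2, KO 9 and KO 22, against 41.1%, 40.8% and 40.5% in WT 1, WT 2 and WT 3. The log2 allelic ratio rose by 1.36 (SE 0.19, adjusted p = 0.00435, edgeR's quasi-likelihood test). Both genomes were higher in KO lines, at 394 ± 30.4 CPM from genome 1 in KO lines and 59.8 ± 3.08 in WT libraries, a ratio of 6.60. Genome 2 gave 225 ± 40.9 in KO lines and 86.7 ± 5.16 in WT libraries, a ratio of 2.60.

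Cnn1 was lower by more from genome 2 than from genome 1. Its allele-assigned counts from genome 1 and genome 2 were 29 and 24 in KO 2, 32 and 19 in KO 9 and 56 and 32 in KO 22, against 187 and 544 in WT 1, 162 and 583 in WT 2 and 161 and 548 in WT 3. The genome 1 share was 60.4% ± 4.91 in KO lines and 23.3% ± 2.0 in WT libraries (SD, n = 3 each), and the ratio rose by a log2 of 2.33 (SE 0.25, adjusted p = 0.00198, edgeR's quasi-likelihood test). The few counts left in KO lines limit each share, with a 95% Wilson interval of 41.5% to 67.3% for KO 2 that covers counting error only. Genome 1 gave 0.637 ± 0.242 CPM in KO lines and 2.77 ± 0.251 CPM in WT libraries, and genome 2 gave 0.408 ± 0.108 CPM in KO lines and 9.10 ± 0.337 CPM in WT libraries, so both genomes were lower.

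Lmod1 changed its allelic ratio while its total hardly differed. Genome 1 held 40.8%, 44.6% and 41.4% in KO 2, KO 9 and KO 22, against 19.7%, 20.6% and 21.04% in WT 1, WT 2 and WT 3, with no overlap. The ratio rose by a log2 of 1.51 (SE 0.13, adjusted p = 0.00144, edgeR's quasi-likelihood test). Genome 1 gave 30.5 ± 3.83 CPM in KO lines and 13.4 ± 0.206 in WT libraries, a ratio of 2.27. Genome 2 gave 41.4 ± 2.13 in KO lines and 52.2 ± 1.34 in WT libraries, a ratio of 0.794. All 4 allelic calls held under all 9 alternatives.

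**Figure D3:**
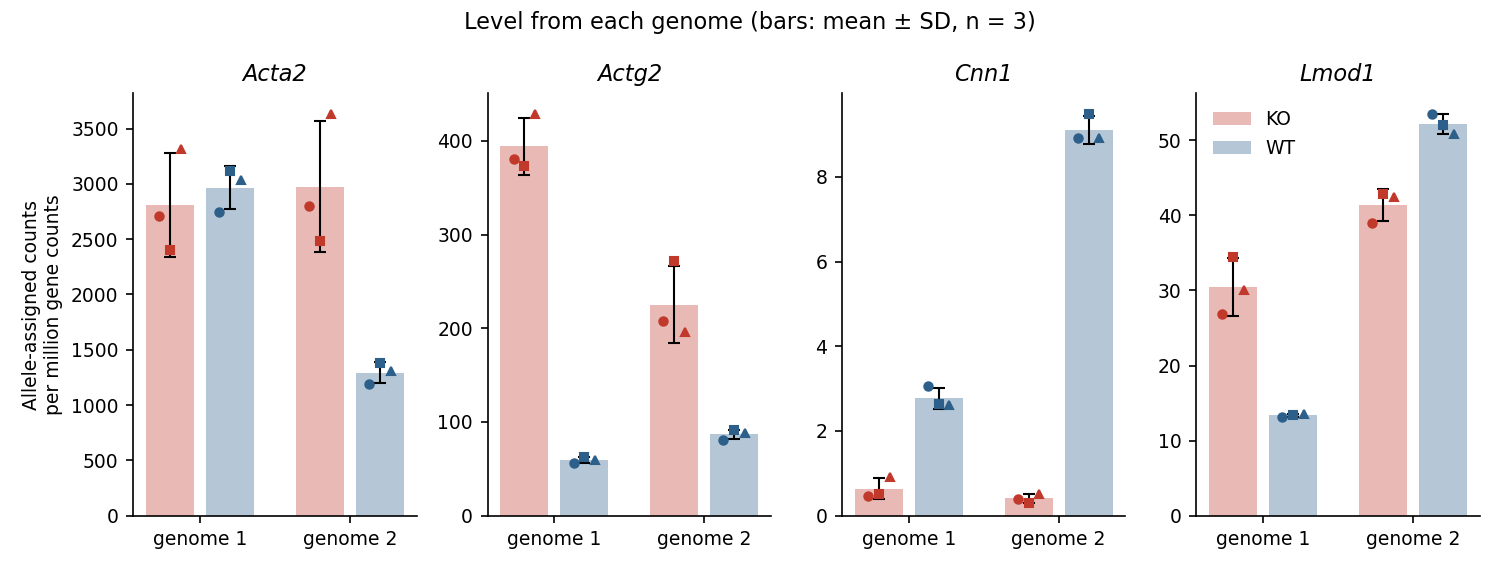
Allele-assigned counts, as CPM of all gene counts, from genome 1 and genome 2 for Acta2, Actg2, Cnn1 and Lmod1 (red, KO; blue, WT; bars give the mean, error bars the SD over 3 libraries, points the libraries). The Acta2 means differ between KO and WT mainly for genome 2, Actg2 is higher in KO lines from both genomes, Cnn1 is lower from both, and Lmod1 is higher from genome 1 and lower from genome 2.

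The surrounding genes and the rest of the chromosome shifted the same way as the gene at all 4 loci. Genes within 5 Mb of Acta2 had a pooled genome 1 share of 53.4% ± 0.987 in KO lines and 72.9% ± 0.328 in WT libraries (SD, n = 3 each). Around Actg2 the share was 67.4% ± 1.54 in KO lines and 39.7% ± 1.11 in WT libraries, and around Lmod1 44.4% ± 1.98 in KO lines and 24.99% ± 0.649 in WT libraries. For Acta2, Actg2 and Lmod1 the nearby genes had a shift, KO minus WT, of -19.5, 27.7 and 19.4 percentage points, beside -21, 22.9 and 21.8 points for the gene itself. The shift was not confined to these neighbours. Over all other genes of chromosome 19, which holds Acta2, the genome 1 share was 49.5% ± 1.17 in KO lines and 69.4% ± 0.656 in WT libraries. For chromosome 6, with Actg2, it was 62.0% ± 1.34 in KO lines and 36.1% ± 0.126 in WT libraries, and for chromosome 1, with Lmod1, 61.6% ± 2.99 in KO lines and 36.9% ± 0.499 in WT libraries. The part of the chromosome-wide difference in these calls was not tested.

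Around Cnn1 the nearby share was 55.0% ± 9.52 in KO lines and 39.4% ± 0.296 in WT libraries, a smaller shift than that of Cnn1 itself, and over the rest of chromosome 9 it was 48.3% ± 7.49 in KO lines and 36.6% ± 0.281 in WT libraries. The Cnn1 share minus that of its neighbours was -3.24 to 14.0 percentage points in the KO lines and -17.9 to -13.5 points in the WT libraries. Myl9, whose own ratio was not called, lay 11.3 to 14.2 points above its neighbours in the KO lines and 3.28 to 3.83 points above them in the WT libraries. These contrasts with neighbours were not tested.

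**Figure D4:**
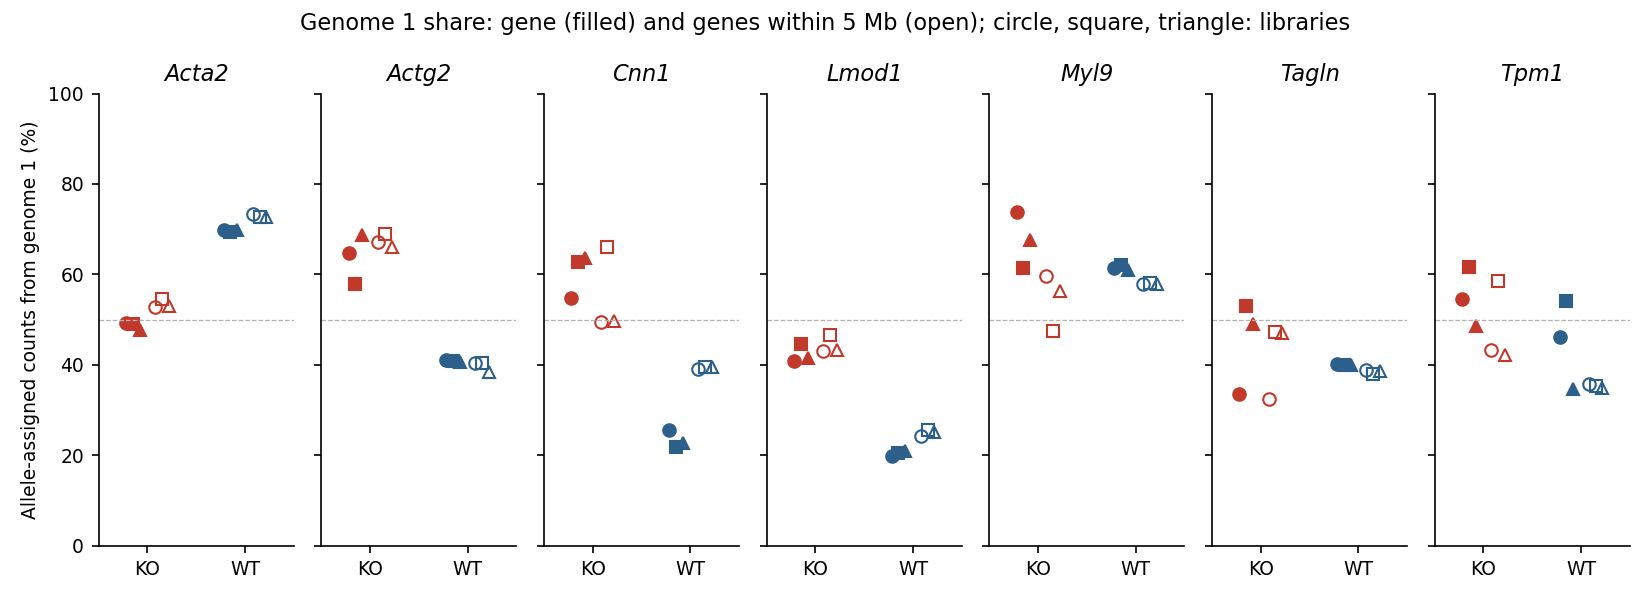
Genome 1 share of allele-assigned counts (percent) in each library for 7 of the 10 genes (filled) and pooled over genes within 5 Mb of each (open), KO lines left in red and WT libraries right in blue, with a dashed line at an even split. Filled and open points shift together for Acta2, Actg2 and Lmod1, while for Cnn1 the filled points lie well below the open ones in all 3 WT libraries and close to or above them in the KO lines (circle, KO 2 or WT 1; square, KO 9 or WT 2; triangle, KO 22 or WT 3).

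The other 6 genes were not called in the allelic test. Myl9 had a genome 1 share of 67.6% ± 6.17 in KO lines and 61.5% ± 0.479 in WT libraries (adjusted p = 0.250, edgeR's quasi-likelihood test), and Tagln 45.2% ± 10.3 in KO lines and 40.1% ± 0.132 in WT libraries (adjusted p = 0.556). Without KO 9 the Myl9 ratio was called (adjusted p = 0.0323), and without KO 2 that of Tagln was (adjusted p = 0.0268). Tpm1 had a share of 55.0% ± 6.47 in KO lines and 45.0% ± 9.78 in WT libraries (adjusted p = 0.280), and Acta1 72.0% ± 10.99 in KO lines and 78.5% ± 6.78 in WT libraries (adjusted p = 0.588). For Acta1 both genomes were higher in KO lines, by ratios of 4.24 and 5.25. Myh11 had 4 to 6 genome 1 counts per KO line and 0 to 4 per WT library. From genome 2 it had 61, 82 and 41 counts in KO 2, KO 9 and KO 22, against 29, 2 and 10 in WT 1, WT 2 and WT 3. Its genome 1 share was 8.96%, 4.65% and 8.89% in the KO lines, while genes within 5 Mb had 50.2% ± 1.53. No allelic difference between the groups was detectable at this depth (adjusted p = 0.872, edgeR's quasi-likelihood test), and the sign of the Myh11 ratio changed without WT 2. Under 5% of Tpm2 counts could be assigned in any library, and its genome 1 share ran from 29.7% to 63.7% in KO lines and from 26.0% to 56.7% in WT libraries (adjusted p = 1), with a ratio whose sign changed without KO 22 and without WT 1.

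The partners and regulators of these genes were listed for comparison, with earlier results of these data known. Of 13 tested genes for the non-muscle versions of the same proteins, 3 rose and 10 did not pass the test. Among all genes tested, 3.54% were called higher and 6.73% were called in either direction. Myh10, a non-muscle myosin heavy chain, rose by 0.89 ± 0.15 on the log2 scale (adjusted p = 0.0277, edgeR's quasi-likelihood test). The essential light chain Myl6 rose by 0.54 ± 0.10 (adjusted p = 0.0291) and the tropomyosin Tpm4 by 0.48 ± 0.08 (adjusted p = 0.0247). The cytoplasmic actins Actb and Actg1 had log2 fold changes of 0.19 ± 0.11 and -0.10 ± 0.13 and did not pass the test, and the Actg1 value was 0.025 without KO 2. With no filter on low counts none of the 3 calls held. Once chromosome medians were taken out the calls of Myl6 (0.38, adjusted p = 0.0772, limma's moderated test) and Tpm4 (0.28, adjusted p = 0.0890) were lost.

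The median log2 fold change was 0.46 over 29 tested genes for other proteins of smooth muscle filaments and adhesions. Of the 29, 25 did not pass the test and 4 rose, beside 3.54% of all genes tested. These were the alpha-actinin gene Actn1 (0.42 ± 0.08, adjusted p = 0.0376, edgeR's quasi-likelihood test), the LIM-domain adhesion genes Pdlim7 (0.42 ± 0.09, adjusted p = 0.0419) and Lpp (0.63 ± 0.13, adjusted p = 0.0421), and Nexn, which binds actin (0.67 ± 0.15, adjusted p = 0.0492). None of these 4 was called with no filter on low counts, and once chromosome medians were taken out Actn1 (0.30), Pdlim7 (0.25) and Lpp (0.44) were not. Of 15 tested genes known as targets of SRF or of the YAP co-activator, 2 rose and 1 fell, beside 3.54% and 3.19% of all genes tested. Fhl1, a LIM-domain gene of muscle, had 533, 620 and 573 CPM in KO 2, KO 9 and KO 22, against 205, 231 and 224 CPM in WT 1, WT 2 and WT 3, a rise of 1.42 ± 0.10 (adjusted p = 0.00220, edgeR's quasi-likelihood test). Zyx, zyxin of focal adhesions, rose by 0.41 ± 0.08 (adjusted p = 0.0361), and Ier3, an immediate early gene, fell by 0.67 (SE 0.13, adjusted p = 0.0394). With no filter on low counts the calls of Zyx and Ier3 were lost. With chromosome medians taken out the Ier3 value was -0.39 (adjusted p = 0.204, limma's moderated test).

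Of 24 tested regulators, 1 rose and 2 fell, beside 3.54% and 3.19% of all genes tested. The list held signalling genes such as Rhoa, Rock1 and Tgfbr1 as well as transcription factors and their cofactors. Klf4, a known repressor of smooth muscle genes, had 13.9, 20.04 and 11.4 CPM in KO 2, KO 9 and KO 22, against 59.3, 65.0 and 65.1 CPM in WT 1, WT 2 and WT 3, a fall of 2.03 on the log2 scale (SE 0.21, adjusted p = 0.00739, edgeR's quasi-likelihood test). Gata6, a transcription factor of vascular smooth muscle, rose by 2.40 ± 0.26 (adjusted p = 0.00845) and averaged 4.19 CPM in KO lines and 0.810 CPM in WT libraries. Foxf1, a forkhead factor of visceral mesenchyme, fell by 2.98 (SE 0.65, adjusted p = 0.0476) and averaged 0.251 CPM in KO lines and 2.04 CPM in WT libraries. Srf itself and the genes of its cofactors did not pass the test, with log2 fold changes of -0.35 ± 0.16 for Srf, -0.22 ± 0.16 for Mrtfa and 0.31 ± 0.09 for Mrtfb. Once chromosome medians were taken out these values were -0.06 for Srf, 0.035 for Mrtfa and 0.14 for Mrtfb. The Srf value was -0.22 without KO 9. That of Mrtfa was -0.10 without KO 2, and without KO 22 it passed the test (-0.41, adjusted p = 0.0415, edgeR's quasi-likelihood test). The Foxf1 call was lost with no filter on low counts, with limma-voom using group weights and without KO 22. Of the genes called in these 4 lists, Fhl1 alone was still called when any WT library was left out.

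**Figure D5:**
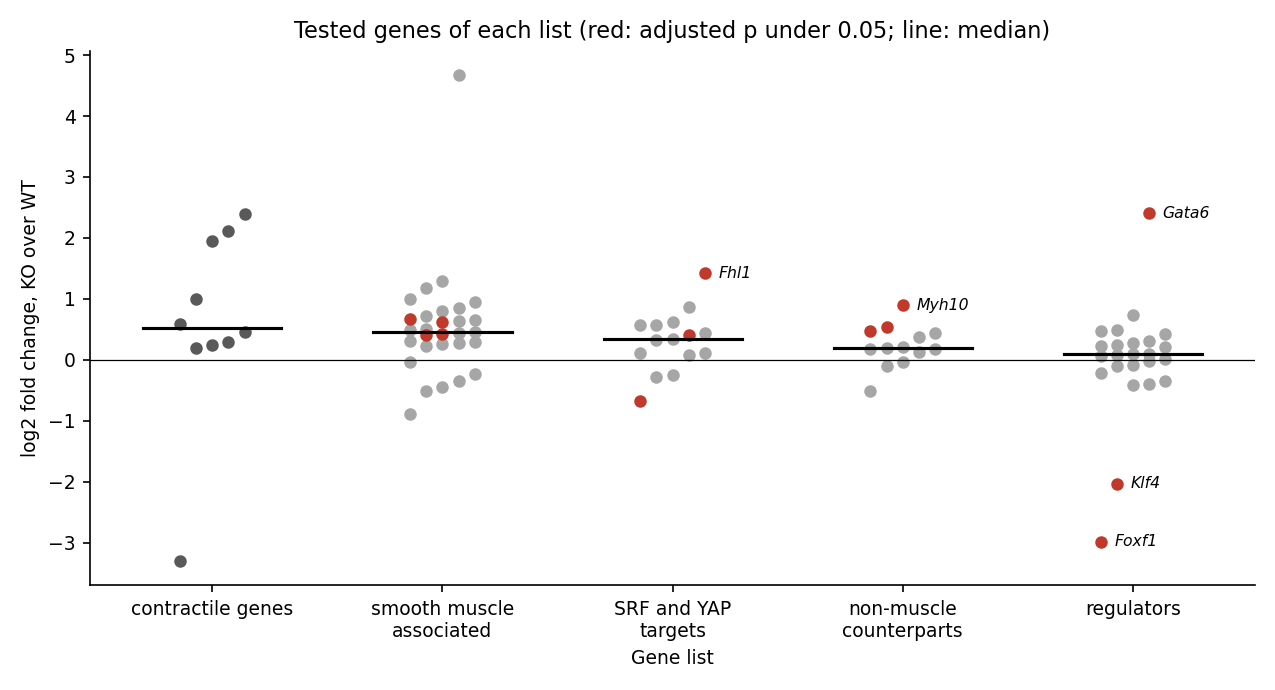
Log2 fold change, KO over WT, of every tested gene in the set of 10 (dark grey) and in 4 other lists (light grey, not called; red, adjusted p under 0.05), with a line at each list's median. The medians are 0.52 for the 10 genes, 0.46 for smooth muscle associated genes, 0.34 for SRF and YAP targets, 0.19 for non-muscle counterparts and 0.09 for regulators.

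Markers of other cell types were read beside these values. Fibroblast markers were mixed. The 14 markers, all of them detected, summed to 28070.0 to 35210 CPM in KO lines and 19234 to 19570 CPM in WT libraries, and 3 of them rose, the collagen genes Col1a1 (0.93 ± 0.13, adjusted p = 0.0175, edgeR's quasi-likelihood test), Col1a2 (1.25 ± 0.15, adjusted p = 0.0104) and Col3a1 (1.10 ± 0.22, adjusted p = 0.0408). Of all genes tested, 3.54% were called higher. The collagens made up most of the sum. The other 11 did not pass the test, 7 of the 14 had a negative log2 fold change and the list median was 0.04. Among these, Thy1 had a log2 fold change of -1.63 and averaged 31.1 ± 36.6 CPM in KO lines and 99.5 ± 1.3 CPM in WT libraries (SD, n = 3 each). The values were -1.04 ± 0.82 for Pdgfra, -1.04 ± 0.71 for Fap and -0.96 ± 0.29 for Fbln1. In KO 22, Pdgfra had 81.3 CPM, above every WT library, and Fap had 4.30 CPM, within the WT range. Pdgfrb, Dcn and S100a4 had values from -0.08 to -0.01. Positive values were 2.04 ± 1.01 for Lum, 0.67 ± 0.19 for Vim, 0.25 ± 0.12 for Col5a1 and 0.10 ± 0.21 for Fbln2. The smooth muscle markers other than members of the set summed to 230 to 605 CPM in KO lines and 227 to 234 CPM in WT libraries. Pericyte markers summed to 100.04 to 167 CPM in KO lines and 94.8 to 101 CPM in WT libraries, with Higd1b and Vtn at 0 counts. Of those, the channel subunit gene Abcc9 rose by 1.03 ± 0.12 (adjusted p = 0.0113, edgeR's quasi-likelihood test). The other 4 tested did not pass, with log2 fold changes of 2.79 ± 0.78 for Rgs5, 0.21 ± 0.16 for Cspg4, -0.50 ± 0.34 for Ndufa4l2 and -2.99 ± 1.54 for Anpep, which averaged 0.899 CPM in KO lines and 7.44 CPM in WT libraries. Endothelial markers summed to 0.833 to 5.64 CPM in KO lines and 2.31 to 2.76 CPM in WT libraries, with Cdh5, Tie1 and Cldn5 at 0. Immune markers summed to 11.5 to 27.5 CPM in KO lines and 10.3 to 11.3 CPM in WT libraries, with Adgre1 and Cd3e at 0, and keratinocyte markers to under 1 CPM in every library. The part of fibroblast, pericyte, smooth muscle or immune cells in the differences of the 10 genes was not tested.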

How the data were processed

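RNA was extracted with TRIZOL, and a sequencing company selected polyA RNA and made the libraries, per the labels' protocols. Without roles, the submitters' processing notes list StringTie 1.3.3, HISAT2 2.1.0, Trimmomatic 0.36, DESeq2 1.32.0, SAMtools 0.1.19 and FastQC 0.11.3, with the builds mm10 and GRCm38. No settings, strand or annotation are stated in those sources. The tables that the authors deposited hold estimated counts, by gene and by transcript for all reads, and by gene for the genome 1, genome 2 and unassigned reads. All values were whole and entered the fits as they stand. Of 55487 genes, 55227 matched GENCODE M21 (GRCm38). The knockout columns carry the numbers 2, 9 and 22 of 3 knockout lines in the titles. The columns may instead be the knockout libraries titled only by replicate, which have the same genotype.

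KO and WT libraries were compared in edgeR 4.0.16 under R 4.3.3 (quasi-likelihood test, TMM scaling, edgeR's default filter, Benjamini-Hochberg adjustment over all features, called at an adjusted p under 0.05). The SE was obtained as the absolute log2 fold change over the square root of F. CPM were scaled to each library's total of gene counts. Allelic ratios were tested by an allele by group term with a term per library, in genes averaging 20 or more allele-assigned counts per library, and transcript usage by diffSpliceDGE. Alternatives were DESeq2 1.42.0, limma 3.58.1, other scalings and filters, chromosome medians taken out and each library left out. The fit with chromosome medians taken out used limma's moderated t-test on centred log CPM, so model and centring changed together. The fits were tested on simulated data. The 10 genes and all lists were chosen with earlier results of these data known. Named genes are the 10, the called genes of each comparison list up to the 6 with the smallest adjusted p, Srf, Myocd, Mrtfa, Mrtfb, Actb, Actg1 and Sirt7. Transcripts of the 10 genes named by rule held at least 10% of a gene's counts or were called. Cnn1-205, Sirt7-201, Sirt7-207, Gm48529 and the cell type markers named with values fall outside that rule and were chosen after their values were seen. At this depth counting error is small except for Cnn1, Myh11 and the allele-assigned counts of Acta1 and Tpm2. Sequence that separates the Actg2 transcripts is not reported here.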

Additional observations from a re-analysis of the deposited data

Results flagged for a closer look

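The allelic ratio of 4 of the 10 genes differed between genotypes by a test of the difference itself (edgeR's quasi-likelihood test of an allele by group term). The log2 ratio of genome 1 to genome 2, KO minus WT, was -1.28 for Acta2, 1.36 for Actg2, 2.33 for Cnn1 and 1.51 for Lmod1. In each case every KO line lay on the same side of every WT library. Such calls were frequent in these libraries, at 23.0% of all genes tested, and the genes within 5 Mb and the rest of the chromosome shifted in the same direction in each case.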

How the results depend on the processing

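The 3 KO lines differ, so line and genotype cannot be told apart, and with 3 libraries a group the calls rest on few samples. For total counts 1123 genes were called, against 2590 with DESeq2, 396 with no filter on low counts, and 45 to 2482 when 1 library was left out: 51, 45 and 50 without WT 1, WT 2 and WT 3, and 1662, 1256 and 2482 without KO 2, KO 9 and KO 22. The share of calls that were higher in KO was 52.6%, and 46.2% with total-count scaling or limma-voom. For the allelic ratio 2992 genes were called, and 1710 to 3822 with 1 library left out. For transcript usage 151 transcripts were called, 91 of those with a mean of at least 50 counts, 286 with limma's diffSplice and 260 to 339 with 1 library left out. The causes were not tested. For 40 values of named genes and transcripts under 468 alternatives in all, 385 kept direction and side of the threshold, 69 were no longer called (44 of these without a WT library), 9 became called and 5 changed sign, none of the last called. These were the fold change of Mrtfa (-0.22, and 0.035 with chromosome medians taken out) and, with 1 library left out, that of Actg1 (-0.10, and -0.21 to 0.025) and the log2 allelic ratios of Myh11 (-0.70, and -2.21 to 3.64) and Tpm2 (0.04, and -0.56 to 0.47). The calls in a list ran from 1 to 5 for the 10 genes, 0 to 5 for non-muscle counterparts, 0 to 11 for smooth muscle associated genes, 0 to 6 for regulators and 1 to 5 for SRF and YAP targets. No paired analysis was possible because the knockout columns, numbered 2, 9 and 22, and the wild-type columns, numbered 1, 2 and 3, share fewer than 2 numbers. Depth limits the allelic values of Myh11 and Acta1 and the Cnn1 shares in KO lines. Few Tpm2 counts could be assigned, and the Tpm2 shares differed between libraries of a group beyond counting error.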
